A study of Mus musculus with 6 samples.

Results

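The T cell antigen receptor (TCR) tells a helper T cell that its antigen is present, and within hours of its engagement the cell rewrites much of its transcription. Calcium and calcineurin carry the signal to NFAT, protein kinase C and the CARMA1 complex carry it to NF-kappa B, and MAP kinases carry it to AP-1. In Th2 cells, the helper subset that directs allergic and anti-parasite immunity, the same signal releases the effector cytokines that the cells were programmed to make. The response described here is that of Th2-4th cells with control siRNA after 4 h on immobilized anti-TCR mAb, measured as the log2 signal of the stimulated array minus that of the unstimulated array. Cytokine and chemokine genes had the largest rises, most genes of ribosome assembly rose, and most of a list of resting T cell genes fell.

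Th2-4th cells are mouse Th2 cells from long culture. Splenic CD4 T cells of C57BL/6 mice were stimulated for 5 days with immobilized anti-TCR mAb and anti-CD28 mAb. IL-4 at 100 U/ml and IL-2 at 25 U/ml were present. The cells were rested for 2 days with no added cytokine. Repeated 5-day rounds of anti-TCR mAb, IL-2 and an antibody that blocks IL-4 followed. Both arrays of the pair hold cells that had received the control siRNA by nucleofection (the labels also call them mock-transfected), and the only stated difference between them is the 4 h of anti-TCR mAb, given 24 h after transfection. The labels and the methods give the anti-TCR concentration in different units, and the number of mice behind an array is not given in the sources used here. The other 4 arrays of the series hold Th2-4th cells with GATA3 siRNA after stimulation, and Th2-1st cells, which were cultured for 5 days under the same Th2 conditions, in the 3 corresponding states. Because there is a single array for each condition, the differences below come without replicates and without p-values.

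A gene was described where the higher signal of the pair exceeded the median of that array over all probe sets, which was 74.2 without and 72.8 with stimulation. This applied to 11185 of the 18193 genes measured, and each gene was read by 1 probe set, a group of probes for the same transcript. In 9551 of them both signals were above the medians. In the other 1634 only the higher signal was, and for these the size of a change is given as a lower bound, with the low signal raised to its median. A gene described through its stimulated signal alone can only be higher after stimulation, and one described through its unstimulated signal alone only lower. Just inside the limit lay Mfsd6l (44.8 and 72.9) and Fgf23 (74.2 and 45.0), and just outside it Vsig10l (9.68 and 72.8) and Elavl2 (53.5 and 72.8). Signal intensities compare 1 probe set between arrays and say nothing about the order of different genes.

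The markers of the labelled cell type were present. All 10 measured T cell markers, from Cd3d (26795 to 24106) to Cd4 (882 to 565), were above the medians on both arrays, with a median difference of -0.02. Of 9 B cell markers, 2 were above the median without stimulation and 1 with it, and the defining genes Cd79a, Ms4a1 and Pax5 were below both medians, while Ighm went from 693 to 76.8. Of 12 myeloid markers, 4 and 3 were above the medians, and the summed signal of the list was 807 and 609. Of 10 mast cell and basophil markers 2 were above the medians on each array, the protease genes Cpa3 (582 to 320.2) and Mcpt8, which rose (183 to 873, 2.26), while Kit, Fcer1a and Ms4a2 were below both, and the summed signal was 896 and 1336. Of 10 stromal and erythroid markers 2 and 3 were above, among them Epcam, an epithelial adhesion gene that rose (677 to 2541, 1.91), and the sum was 1216 and 2978. Among 9 markers of CD8 T and NK cells, 6 and 7 were above the medians, including Klrd1 (1608 to 832), Cd8a (124 to 217) and Crtam, an adhesion receptor of activated T cells (95.6 to 4693). The part that such cells may have in a difference was not tested. Gata3, the gene that the siRNA of the study targets, read 4846 without and 9261 with stimulation in control cells and 2853 in stimulated cells with GATA3 siRNA.

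After stimulation 1628 genes were over 2-fold higher (14.6% of the 11185) and 2354 were under 0.5-fold (21.0%), together 3982 (35.6%), and the median difference of all of them was -0.20. "Rose" and "fell" are used below only for these 2 classes, and 14.6% and 21.0% are the background for the counts of every list. With low signals raised to the medians, 1269 genes were over 2-fold and 2072 under 0.5-fold, so part of the calls rest on signals below the medians. RNA was taken from whole cultures, so fewer cells of a type and less RNA per cell cannot be told apart. Falls outnumbered rises near the threshold and rises outnumbered falls far from it. Among the 9551 genes with both signals above the medians, 1082 (11.3%) were over 2-fold and 1852 (19.4%) under 0.5-fold, and past 4-fold the counts were 345 and 349. Past 8-fold there were 124 rises and 62 falls, past 16-fold 52 and 5, and past 32-fold 33 and 1. All 10 reference genes stayed within 2-fold, Actb among them (38848 to 39184). The highest signal of any probe set was 58757 with stimulation, so a 2-fold rise of a gene as bright as Actb could not have been read.

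**Figure D1:**
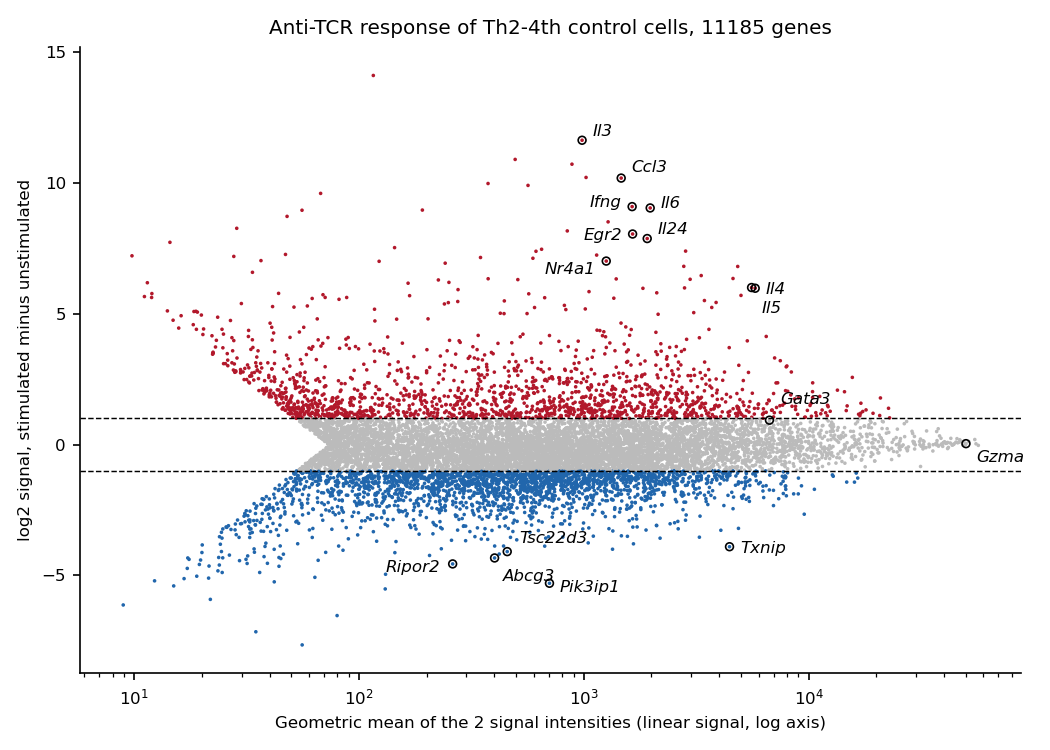
Log2 signal of stimulated minus unstimulated Th2-4th control cells (vertical axis) against the geometric mean of both signals (horizontal axis, log scale). Each point is 1 of 11185 genes, red over 2-fold, blue under 0.5-fold and grey between, dashed lines mark 2-fold and circles mark named genes, of which Il6 lies at 9.05, Pik3ip1 at -5.30 and Gata3 at 0.93.

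Immediate early transcription factors, whose genes are switched on by the signal itself without new protein, rose in most cases. Of the 28 members of the AP-1, EGR and NR4A list 22 rose and none fell, a share of 78.6% against 14.6% of all genes described. Their median was 2.74, or 2.13 with low signals raised. Egr2 and Egr3 encode zinc finger factors that both drive and restrain T cell activation, and the NR4A genes encode orphan nuclear receptors whose level follows the strength of the TCR signal.

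Egr2 went from 101 to 26871 (log2 difference 8.05), and its other probe set above the medians gave 8.41. Nr4a1 went from 111 to 14331 (7.02) and Nr4a2 from 139 to 8011 (5.85). Nr4a3, below the median at rest, went from 67.0 to 24555, at least 331-fold, and its other probe sets reached only 120 and 141, from 20.4 and 1.51. Egr3 had a difference of 5.43, with 0.28 by its second probe set, and Egr1 one of 5.24. Among AP-1 subunits all 4 FOS genes and 2 of 3 JUN genes rose. Fos went from 66.0 to 2975 (at least 40.1-fold), Fosl1 from 19.5 to 705 (at least 9.50-fold) and Fosl2 from 1390.0 to 5421 (1.96, with 0.73 by its second probe set). Junb, at 407 to 2144, had a difference of 2.40 and Jund one of 1.24, while Jun stayed within 2-fold at 0.68. Batf, the AP-1 partner of IRF4 in T cells, rose by 1.73 and Atf3 by 4.17. Srf, Klf4, Klf6 and Klf10, which are immediate early genes in many other cells, stayed within 2-fold, between -0.53 and 0.12. Nab1 and Nab2 encode corepressors of EGR proteins, and of the pair Nab2 rose (95.2 to 1180.1, 3.63) while Nab1 had a difference of 0.36.

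The promoters of the 3 immediate early genes with the largest rise from a measured resting level are shown so that the motifs counted below can be read in them. Each runs from 250 bases before to 50 after a RefSeq start site (GRCm38.p6), capitals mark the motifs searched on both strands, and for Egr2 the middle of its 5 windows is given. Egr2 is on chr10:67537619-67537918 (plus strand), with a serum response element in capitals, the site of SRF and its MAP kinase-driven partners. Nr4a1 is on chr15:101266596-101266895 (plus strand), with letters of an NF-kappa B site next to the start. Nr4a2 is on chr2:57123954-57124253 (minus strand), with TATA box letters on the opposite strand.
Egr2: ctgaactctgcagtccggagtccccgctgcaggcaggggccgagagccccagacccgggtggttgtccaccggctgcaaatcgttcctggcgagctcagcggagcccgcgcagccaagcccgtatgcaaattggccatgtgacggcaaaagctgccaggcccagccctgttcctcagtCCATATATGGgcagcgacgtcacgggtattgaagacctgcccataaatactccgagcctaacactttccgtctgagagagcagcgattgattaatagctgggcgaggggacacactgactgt
Nr4a1: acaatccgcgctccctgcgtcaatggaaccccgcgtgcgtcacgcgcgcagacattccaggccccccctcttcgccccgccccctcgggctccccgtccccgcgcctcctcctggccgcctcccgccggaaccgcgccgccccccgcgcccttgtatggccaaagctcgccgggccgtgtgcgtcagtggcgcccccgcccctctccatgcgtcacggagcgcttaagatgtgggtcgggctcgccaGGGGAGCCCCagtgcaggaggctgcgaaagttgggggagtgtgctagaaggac
Nr4a2: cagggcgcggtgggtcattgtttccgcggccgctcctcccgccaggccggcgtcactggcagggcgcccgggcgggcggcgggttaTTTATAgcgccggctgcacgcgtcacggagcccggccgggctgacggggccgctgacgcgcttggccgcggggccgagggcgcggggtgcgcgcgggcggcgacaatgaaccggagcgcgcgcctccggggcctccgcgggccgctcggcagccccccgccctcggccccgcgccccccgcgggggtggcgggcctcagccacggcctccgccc
Over the 32 windows of this list the serum response element was found in 5 (15.6%), 4 of them windows of Egr2 and the other of Srf, against 1.63% of all 32851 windows. Counted by gene it was present in 2 of 23 (8.70%) against 1.81% of all genes. The NF-kappa B site was found in 7 genes of the list (30.4%) against 5.14%, and the AP-1 site TGANTCA in 1 (4.35%) against 8.97%. A match of letters is a description and not a bound site.

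Cytokine genes had the largest median of the lists. Of the 13 members of the list of Th2 and haematopoietic cytokines 12 rose and none fell, with a median of 6.35. The median was the same with low signals raised, since the middle gene had both signals above the medians. The list holds the classical Th2 products IL-4, IL-5 and IL-13, which drive IgE, eosinophils and mucus, and the growth factors IL-3 and GM-CSF that act on bone marrow lineages.

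Il4 went from 729 to 45979.6 (5.98) and Il5 from 696 to 44722 (6.01). Il13, whose resting signal was below the median, went from 29.7 to 35292, at least 476-fold. The resting cells thus gave a signal above the median for Il4 and Il5 and not for Il13. Il3 went from 17.4 to 55479 (at least 748-fold), the largest bound of the response, and Csf2, its neighbour on the chromosome, from 510.4 to 41681 (6.35). Il6, a cytokine of inflammation and antibody responses, had the largest rise of any gene with both signals above the medians, from 85.8 to 45438 (9.05). Il24, of the IL-10 family, went from 125 to 29380.5 (7.88) and Il10, which restrains inflammation, from 693 to 36157 (5.71). Il2, the T cell growth factor, went from 11.3 to 21675 (at least 292-fold). Il31, a cytokine of itch, went from 0.869 to 15418 (at least 208-fold) and Il21, the helper factor of B cells, from 29.3 to 2156 (at least 29.1-fold). Il9 stood low on both arrays, at 60.2 to 232 (at least 3.13-fold), and Csf1, the macrophage growth factor, did not rise by the probe set that stands for it (6789 to 5122, -0.41), while its 3 other probe sets gave -0.79, 0.89 and 1.45. Tslp and Il25, which epithelial cells make, were below the limit on both arrays. In stimulated cells with GATA3 siRNA, Il5 read 10857, Il6 6104 and Il13 18108, and Il4 read 38284.

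Promoters of the 3 cytokine genes with the largest rise from a measured resting level, Il24 left aside because no window of it is in the table, are shown for the NFAT core TGGAAA that they share. Il6 lies on chr5:30012864-30013163 (plus strand) and holds an AP-1 site at its far end, the reverse of the NFAT core and an NF-kappa B site. Csf2 lies on chr11:54249850-54250149 (minus strand) and Il5 on chr11:53720544-53720843 (plus strand), each with 1 NFAT core.
Il6: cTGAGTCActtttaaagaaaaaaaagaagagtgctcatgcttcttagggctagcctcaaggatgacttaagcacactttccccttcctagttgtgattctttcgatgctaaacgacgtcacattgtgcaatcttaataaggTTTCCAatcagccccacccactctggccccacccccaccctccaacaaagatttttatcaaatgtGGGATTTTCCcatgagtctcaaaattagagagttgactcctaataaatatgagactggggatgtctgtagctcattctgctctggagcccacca
Csf2: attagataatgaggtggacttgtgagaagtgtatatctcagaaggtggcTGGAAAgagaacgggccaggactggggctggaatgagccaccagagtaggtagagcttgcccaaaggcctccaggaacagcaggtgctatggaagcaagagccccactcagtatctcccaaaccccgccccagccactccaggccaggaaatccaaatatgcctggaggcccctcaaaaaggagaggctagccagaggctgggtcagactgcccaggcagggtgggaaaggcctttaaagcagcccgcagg
Il5: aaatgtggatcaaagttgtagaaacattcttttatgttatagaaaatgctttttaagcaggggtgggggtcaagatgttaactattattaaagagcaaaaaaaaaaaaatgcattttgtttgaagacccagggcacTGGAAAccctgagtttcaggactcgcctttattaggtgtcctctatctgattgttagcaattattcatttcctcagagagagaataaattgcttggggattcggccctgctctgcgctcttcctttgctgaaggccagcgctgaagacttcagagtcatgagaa
The NFAT core was found in 9 of 12 windows of the cytokine list (75%) against 21.4% of all windows, and by gene in 8 of 11 (72.7%) against 23.9%. The core can overlap an NF-kappa B site. The median GC content of these windows was 46.8%, with 3 CpG dinucleotides each, against 52.7% and 7 for all windows and 60.3% and 19 for all genes that rose.

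Chemokines, which draw other leukocytes to the T cell, and ligands of the TNF family, which act on neighbouring cells by contact or release, rose with the cytokines. Of 31 chemokine genes 17 were members, of which 15 rose and none fell, and 14 were below the limit on both arrays. The median of the 17 was 5.59, or 2.53 with low signals raised, and only 6 of them had both signals above the medians. Among these 6, Ccl1, Ccl4, Ccl5 and Ccl9 rose, and Cxcl1 and Cxcl16 stayed within 2-fold (0.66 and 0.46). The rest were described through the stimulated signal alone and could not count as falls. With low signals raised, Ccl28 and Cxcl13 were 1.89-fold and 1.44-fold higher, short of 2-fold.

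Ccl1, a ligand of the Th2 receptor CCR8, went from 457 to 51302 (6.81). Ccl3 and Ccl4, the macrophage inflammatory proteins, went from 42.9 to 50161 (at least 676-fold) and from 218 to 36872 (7.40). Ccl9 went from 155 to 12526 (6.34) and Ccl5 from 2838 to 22301 (2.97). The CXC and XC members that rose started below the median. Xcl1 went from 47.3 to 7942 (at least 107-fold), Cxcl2 from 29.1 to 4144 (at least 55.9-fold) and Cxcl3 from 8.92 to 429 (at least 5.78-fold). Cxcl13 counted as a rise only by its signals as measured, 53.1 to 106 (at least 1.44-fold). Ccl17, a chemokine associated with Th2 inflammation, reached only 158 (at least 2.13-fold), and Ccl22 stayed below the limit (40.2 to 43.0). The promoter windows of 12 chemokine members held the NF-kappa B site in 5 (41.7%) against 4.51% of all windows.

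All 13 genes of the TNF ligand list were members, and 10 rose and 2 fell (median 3.34, 3.16 with low signals raised). Tnf went from 18.2 to 17525 (at least 236-fold) and Tnfsf11, which encodes the osteoclast factor RANKL, from 354 to 31282 (6.46). Tnfsf14 (LIGHT) went from 168 to 6129.6 (5.19), Tnfsf9 (4-1BB ligand) had a difference of 3.34 and Tnfsf8 (CD30 ligand) of 3.16. Cd40lg, the help signal to B cells, went from 8.30 to 318 (at least 4.28-fold), and Fasl, the death ligand that was already well above the median at rest, from 2194 to 11978 (2.45). The genes that fell were Ltb (8569 to 2421, -1.82), a lymphotoxin chain that resting lymphocytes make, and Tnfsf13b (1109 to 467, -1.25), the B cell survival factor BAFF. Another probe set of Tnfsf13b above the medians gave -0.29.

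**Figure D2:**
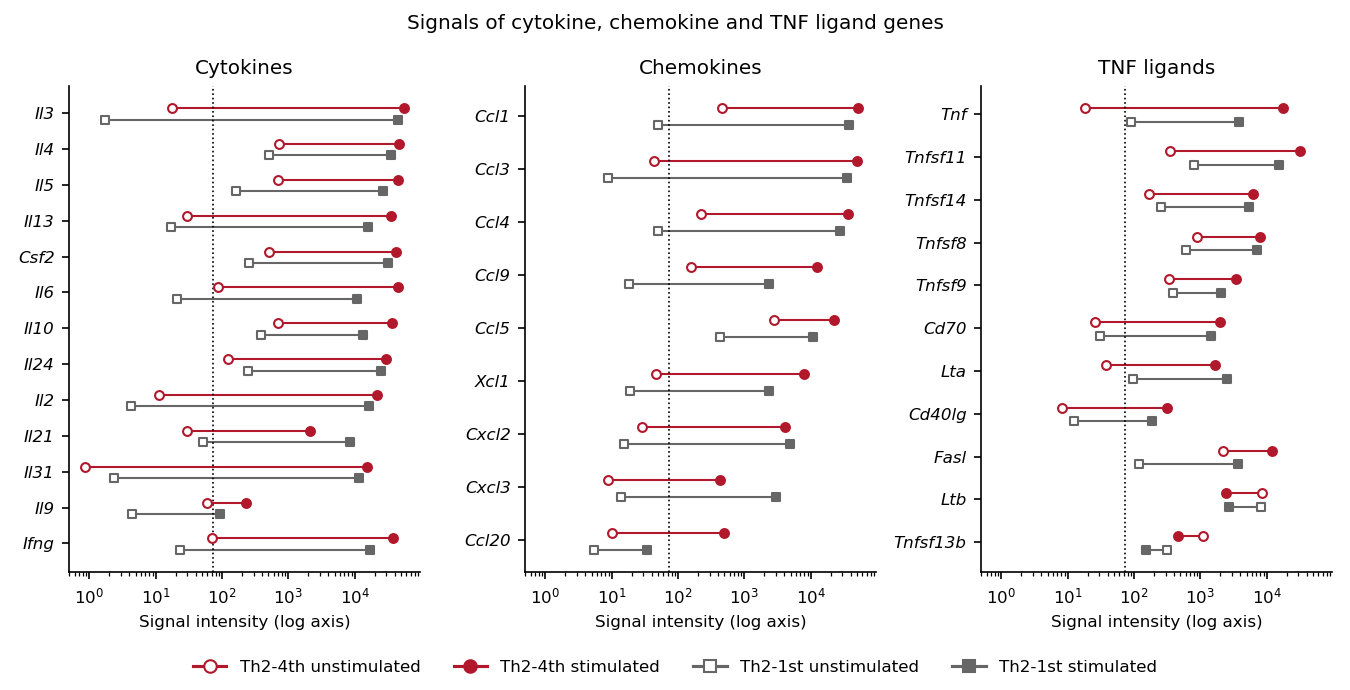
Signal intensity (horizontal axis, log scale) of cytokine, chemokine and TNF ligand genes, open symbols without and filled symbols with 4 h of anti-TCR mAb, circles for Th2-4th and squares for Th2-1st control cells, 1 array each. The dotted line is the median of the unstimulated Th2-4th array (74.2), and Ltb and Tnfsf13b are the genes whose filled symbol lies to the left.

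Other secreted factors were mixed with a majority of rises. Of 21 members 14 rose and 3 fell (median 2.57, 1.87 with low signals raised). Ifng, the Th1 cytokine, rose in these Th2 cells from 70.1 to 38438 (at least 518-fold). Inhba, a chain of activin A, went from 262 to 29574 (6.82), although its other probe set was below the medians on both arrays (28.0 and 8.16). Hbegf, an EGF family ligand, went from 49.7 to 14336 (at least 193-fold), Lif from 124 to 2316 (4.22) and Bmp2 from 239.8 to 3719 (3.96). Penk, the enkephalin precursor, rose from 6426 to 38170.5 (2.57). The falls were Il16 (3562 to 527, -2.76), Ebi3 (-1.31) and Bmp7 (-1.24). Outside the lists, Plek, which encodes the protein kinase C substrate pleckstrin, went from 92.6 to 14059 (7.25), and Olr1, a scavenger receptor for oxidised lipoprotein, from 21.5 to 36415 (at least 491-fold). Hivep3, a zinc finger protein gene, went from 352 to 22395 (5.99), while its 2 other probe sets above the medians gave 0.71 and 0.60.

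**Figure D3:**
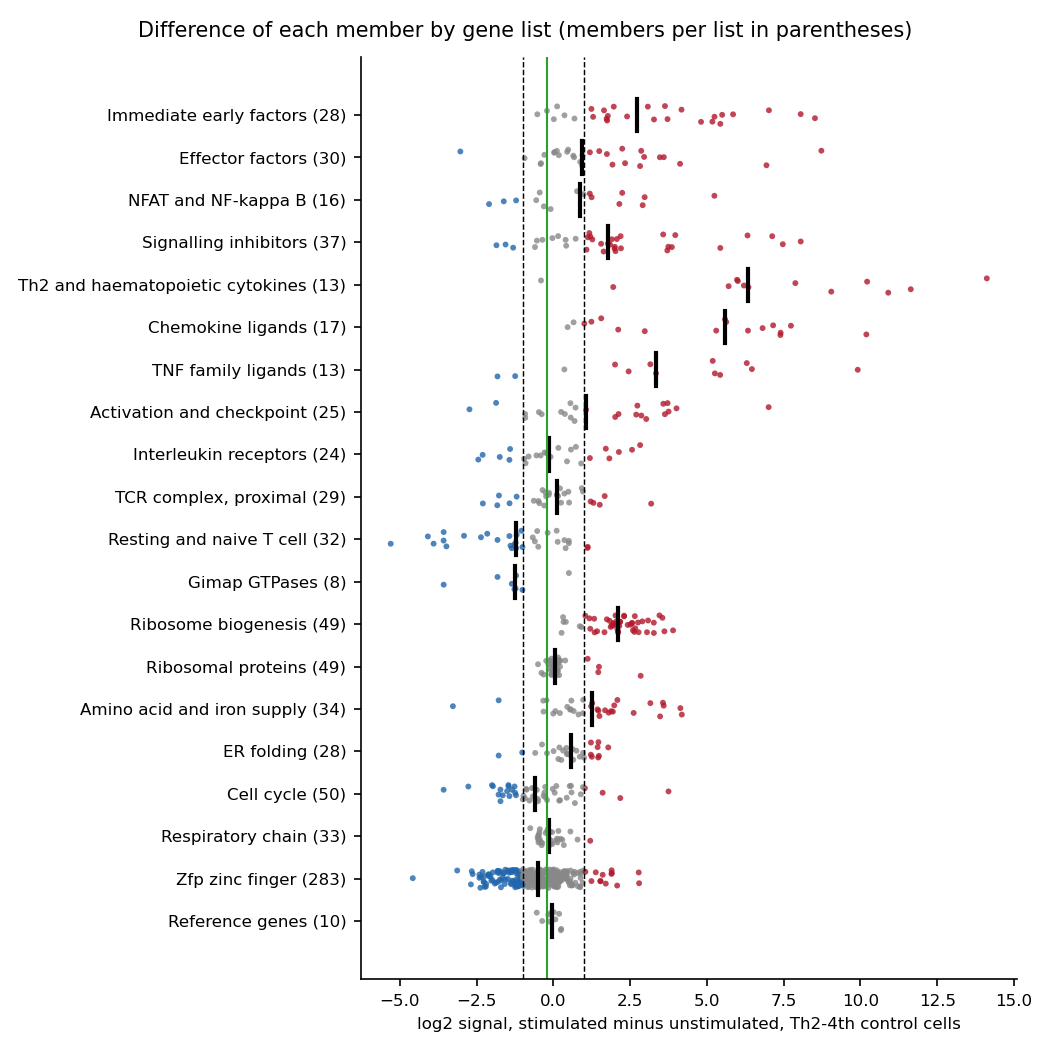
Log2 signal of stimulated minus unstimulated Th2-4th control cells (horizontal axis) for the members of 20 gene lists (vertical axis, number of members in parentheses). Points are genes with low signals as measured, red over 2-fold and blue under 0.5-fold, black bars are list medians, dashed lines mark 2-fold and the green line marks the median of all 11185 genes (-0.20), with cytokines at 6.35 and resting genes at -1.21.

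Receptors on the cell surface were divided between rises and falls. Among activation markers and costimulatory or inhibitory receptors 13 of 25 rose and 2 fell (median 1.06, 0.86 with low signals raised). The rises included checkpoint receptors and their ligands. Pdcd1, which encodes PD-1, went from 555 to 3692 (2.73), its ligand genes Cd274 and Pdcd1lg2 rose by 2.12 and 3.72, Havcr2, which encodes TIM-3, from 703 to 9464 (3.75), and Ctla4 from 1087 to 4384 (2.01). Cd69, the early activation antigen, went from 827 to 6719 (3.02) and Cd83 from 10.8 to 1394 (at least 18.8-fold). Icos and Cd28, the costimulatory receptors themselves, stayed within 2-fold (0.37 and -0.92). Cd80 fell (558 to 153, -1.87, with -0.52 by its second probe set). Slamf6 counts among the falls by its signals as measured, 79.5 to 11.9, but is shown to be only 1.09-fold lower with the low signal raised.

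Of the 13 members of the TNF receptor list 4 rose and 1 fell (median 0.65, 0.07 with low signals raised). Tnfrsf4 (OX40) went from 2463 to 22764 (3.21), Tnfrsf9 (4-1BB) from 1570.1 to 7787 (2.31), Fas rose by 1.32, and Tnfrsf1a, the TNF receptor with a death domain, fell by 1.14 on the log2 scale. Interleukin receptors had 6 rises and 5 falls among 24 (median -0.16), where 14.6% of all genes described rose and 21.0% fell. Subunits of the IL-2 receptor were among the rises, with Il2ra at 2391 to 8445 (1.82) and Il2rb at 595 to 3506 (2.56). Il1rap went from 89.8 to 636 (2.82). The falls included Il7r, the survival receptor of resting T cells (26322 to 9737, -1.43), Ifngr1 (3397 to 622, -2.45), Ifnar2 (-1.41) and Il10rb (-1.75). Il4ra, the receptor for the Th2 cytokine itself, had a difference of -0.42.

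Chemokine and migration receptors had 4 rises and 6 falls among 18 members (median -0.51, -0.23 with low signals raised). Ccr2 went from 7251 to 1124 (-2.69), and its 3 other probe sets above the medians gave -2.66, -2.64 and -2.19. S1pr1, the receptor with which lymphocytes leave tissue (513 to 115, -2.16), S1pr4 (-1.87) and Cxcr4 (733 to 194, -1.92) fell, and so did Gpr34, a receptor for lysophosphatidylserine (1777 to 142, -3.64). The remaining fall, by the signals as measured, was Ccr10 (86.6 to 11.2), which had -0.25 with its low stimulated signal raised to the median. Ptger4, a prostaglandin E receptor gene, rose by 1.42. The other rises were Ccr1 (1.07), Gpr183 and, by the signals as measured, Ccr3, which had 0.23 with its low resting signal raised to the median. Ccr4, the Th2 chemokine receptor, was close to the medians on both arrays (105 to 90.8).

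Nearly as many transcription factors of the effector cell rose as did not. Of 30 members 14 rose and 1 fell (median 0.94). Myc, which drives growth, went from 299 to 5218 (4.12), Irf4 from 1019 to 4812 (2.24) and Irf8 from 228 to 2751 (3.59). Tbx21 and Eomes, the T-box factors of Th1 and cytotoxic cells, rose from 927 to 6552 (2.82) and from 74.1 to 574 (at least 7.74-fold). Zbtb32 went from 21.8 to 2676 (at least 36.1-fold) and Pou2af1, a coactivator better known from B cells, from 2.32 to 985 (at least 13.3-fold). Maf, a Th2 factor, had a difference of 0.48 and Gata3 one of 0.93, just under 2-fold. The fall was Id3, an inhibitor of E proteins, from 2297 to 281 (-3.03), while Id2 stayed within 2-fold (-0.42).

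Among the NFAT and NF-kappa B factors 7 of 16 rose and 3 fell (median 0.87). Rel, the NF-kappa B subunit that lymphocytes induce, went from 98.2 to 3714 (5.24), Nfkb2 from 132 to 1036 (2.97) and Relb from 272 to 1202 (2.15). Nfatc1, the NFAT gene that is itself an NFAT target, went from 1119 to 5284 (2.24). Its other 3 probe sets above the medians gave 3.30, 4.07 and -0.96, so that this gene differed between probe sets in direction. Ikbke, an NF-kappa B pathway kinase gene, fell by 1.62 on the log2 scale. Nfatc2 fell (3814 to 1641, -1.22), although a probe set close to the medians gave 0.25, and Nfatc3 fell (5291 to 1236, -2.10), with -2.08 by its other probe set.

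Negative feedback genes rose in large numbers. Of 37 members of the list of inhibitors of TCR, calcineurin, NF-kappa B and MAP kinase signalling 26 rose and 3 fell (median 1.78), a share of 70.3% that rose. This list shares Egr2 and Egr3 with the immediate early list. Spry1, an inhibitor of the MAP kinase pathway, went from 48.7 to 8641 (at least 116-fold), and the MAP kinase phosphatase genes Dusp4 from 50.2 to 7016 (at least 94.6-fold), Dusp2 from 1227 to 16039 (3.71) and Dusp6 from 5922 to 21247 (1.84). Dusp1, the immediate early phosphatase of many cell types, had a difference of 0.15. Rgs16, which dampens G protein signals of chemokine receptors, went from 333 to 26582 (6.32). Inhibitors of NF-kappa B were among the rises, with Nfkbia at 7174 to 29121 (2.02), Nfkbiz at 3.97, Nfkbid at 3.57, Nfkbie at 2.19 and Tnfaip3, which encodes A20, at 1.90. The falls were Dgka, a diacylglycerol kinase (9412 to 3190.4, -1.56), Sla2 (-1.86) and the deubiquitinase gene Cyld (-1.31). Rcan1, the calcineurin inhibitor that calcineurin induces in other cells, had a difference of -0.54.

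Of 11 SOCS and PIM genes, feedback genes of cytokine signalling, 6 rose and none fell (median 1.53). Pim3 went from 286 to 5131 (4.17), Socs3 from 449 to 5534 (3.62), Pim2 from 208 to 976 (2.23) and Cish from 3683 to 11999.7 (1.70). Socs2 stayed at 6534 to 6904. Proximal components of the receptor changed less. Of 29 genes of the TCR complex and its first kinases and adaptors 5 rose and 5 fell (median 0.11), near the 14.6% and 21.0% of all genes described. Cd3d, Cd3e, Cd3g and Cd247, the chains of the complex, lay between -0.35 and 0.11. The rises were Ubash3b (520.4 to 4723, 3.18), Tec (1.67), Lat (1.51), Sh2d2a (1.30) and Fyn (1.21), and the falls were Pag1 (4942 to 1003, -2.30), Sh2d1a (-1.83), Prkcq (-1.78), Ptpn6 (-1.43) and Csk (-1.20). For Pag1 another probe set, close to the median at rest (80.2 to 222), went the opposite way.

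The largest falls were smaller than the largest rises. Pik3ip1, an inhibitor of PI3 kinase on the T cell surface, had the largest fall of any gene with both signals above the medians, from 4418 to 112 (-5.30), and its other probe set went from 1496 to 26.3. Tsc22d3, the glucocorticoid-induced leucine zipper, went from 1884 to 111 (-4.09, or -2.16 as the mean over its probe sets), Txnip, which binds thioredoxin and restrains glucose uptake, from 17221 to 1150.1 (-3.90), and Mxd4, a MAX partner that opposes MYC, from 5370.0 to 336. For Mxd4, 2 other probe sets went from 1068 to 57.2 and from 430 to 22.1, and a dim one from 65.8 to 129, the opposite way. Abcg3, an ABC transporter gene, went from 1801 to 89.3 (-4.33) and Card6, a CARD protein gene, from 1793 to 98.6 (-4.18). N4bp2l1, Ttll1, Mettl7a1, Tmem71, Ypel3, Tex9, Mns1 and 9230114K14Rik made up the 15 largest falls with Gpr34, between -3.88 and -3.61, and Mns1 and Ttll1 belong to cilia and tubulin biology. N4bp2l1 gave -2.20 by its second probe set, and the mean over probe sets was -1.89 for Mettl7a1 and -1.99 for Tex9. Of genes whose stimulated signal was below the median, Ripor2 went from 1268 to 53.7 (at least 17.4-fold lower, although its next probe set went from 181 to 41.8), Cep97, a centrosome gene, from 924 to 58.4 (at least 12.7-fold) and Tktl1 from 916 to 72.6 (at least 12.6-fold). Tmem86b, Nxpe4, Osbpl5, A630023P12Rik and Tmem154 followed with lower bounds, of at most 12.3-fold. Tmem86b is a call of 1 probe set, since its next one had a difference of -0.54.

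Genes of resting, naive and central memory T cells had 19 falls and 2 rises among 32 members, 59.4% that fell against 21.0% of all, with a median of -1.21. Foxo3, the transcription factor that AKT keeps out of the nucleus, went from 4923 to 439 (-3.49) and Cdkn1b, which encodes the cell cycle inhibitor p27, from 7550.2 to 632 (-3.58). Rasa3 went from 2257 to 299 (-2.91) and Slfn1 from 1853 to 361 (-2.36). Klf2 and Ccr7, hallmark genes of naive T cells, were close to the medians on both arrays (109 to 139 and 78.4 to 68.8), and Lef1 and Satb1 stayed within 2-fold (-0.53 and -0.67). The rises were Bach2 (343 to 744, 1.12) and Slfn2 (11523 to 24853, 1.11). All 8 GIMAP genes, small GTPases of lymphocyte survival that lie side by side on the chromosome, were members and 7 fell, from Gimap3 at -1.01 to Gimap7 at -3.58 (2338 to 196). Gimap5 had a difference of 0.50.

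Ribosome biogenesis genes rose almost as a block. Of 49 genes for the synthesis and processing of ribosomal RNA 43 rose and none fell (87.8% against 14.6%), with a median of 2.11 and a range of 0.26 to 3.90. Rrp9 went from 124 to 1845 (3.90), Nop16 from 265 to 3239.6 (3.61) and Nolc1 from 612 to 7162 (3.55). The box C/D core genes Nop56 and Nop58 rose by 2.64 and 2.65 and fibrillarin, Fbl, by 1.95. Polr1b, a subunit of RNA polymerase I, rose by 2.56, while Polr1a and Polr1c stayed within 2-fold (0.86 and 0.40). The abundant nucleolar genes Npm1 and Ncl were also within 2-fold (0.31 and 0.92). Host genes of small nucleolar RNAs had 6 rises and no fall among 12 members (median 0.98), with Snhg1 at 2996 to 7803 (1.38) and Gas5 within 2-fold at -0.71.

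Genes for the proteins of the ribosome itself mostly stayed within 2-fold. Of 49 members with names of cytosolic ribosomal proteins and their relatives 4 rose and none fell, with a median of 0.05, and 6 more were below the limit. Those that rose were Rpl12, Rps25, Rpl7l1 and Rps19bp1, of which the last 2 are no structural proteins of the cytosolic ribosome by name, and Rps4x, a structural protein gene, went from 42279.5 to 49518. The highest signal of any probe set was 57524 without and 58757 with stimulation. A 2-fold rise from a signal as bright as that of Rps4x was therefore beyond the range read on these arrays. The name pattern also takes in S6 kinase genes. Mitochondrial ribosomal proteins had 9 rises and 3 falls among 76 (median 0.11). Subunits of the respiratory chain had 1 rise, Cycs, the gene of cytochrome c (12787 to 29317, 1.20), and no fall among 33 (median -0.14). Proteasome subunits had 3 rises, Psme3 (1.89), Psmd11 (1.23) and Psmd7 (1.02), among 32 (median 0.39).

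Genes that supply growing cells with building blocks rose in about as many cases as not. Of 34 genes of amino acid, nucleotide and iron supply 18 rose and 2 fell (median 1.24, 1.10 with low signals raised). Slc7a5 and Slc3a2, which form the large neutral amino acid carrier of T cells, rose from 397 to 4775 (3.59) and 1021 to 3904 (1.94). Tfrc, the transferrin receptor, went from 1155 to 10296 (3.16), Srm, which makes spermidine, from 376 to 6811 (4.18) and Slc16a1, a lactate carrier, from 790.2 to 9356 (3.57). The falls were Ddit4, an inhibitor of mTORC1 (12673 to 1309, -3.28), and Ddit3 (-1.79). Over the 200 members with names of solute carriers, 38 rose and 38 fell (median -0.05), near the 14.6% and 21.0% of all genes described. Among those with both signals above the medians, Slc5a3, the myo-inositol carrier (260.1 to 5346, 4.36), and Slc25a45 (1529 to 153, -3.32) led the 2 directions.

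Glycolysis had 3 rises and 2 falls among 17 (median 0.17), where 14.6% of all genes described rose and 21.0% fell. Hk2, the inducible hexokinase, went from 339.6 to 5023 (3.89), Pfkfb3 rose by 1.69 and Pgam1 by 1.46. Pdk1, which encodes an inhibitor of pyruvate dehydrogenase, fell from 2584 to 536 (-2.27) and Pfkm by 1.46 on the log2 scale. Cholesterol synthesis and uptake had 8 rises and 4 falls among 28 with a median of -0.51. Cyp51 rose by 2.33, Hsd17b7 by 2.22 and Hmgcs1 by 1.08, and the exporter gene Abcg1 fell (934 to 160.4, -2.54), so that the list did not move one way. Protein folding in the endoplasmic reticulum had 8 rises and 2 falls among 28 (median 0.58), with the chaperone genes Hspa5 at 11256 to 38763 (1.78), Manf at 1.47 and Calr at 1.22, and Ddit3 and Ern1 falling. Of 18 heat shock and oxidative stress genes 7 rose and 1 fell (median 0.66), led by Srxn1, which repairs peroxiredoxins (710.4 to 11574, 4.03), and Hspa1b (183 to 1677, 3.20).

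Of 50 cell cycle genes 16 fell, against 21.0% of all genes described, and 4 rose, which is 8% against 14.6% (median -0.60 against -0.20 for all). E2f2 went from 1180.4 to 173 (-2.77), Rb1, the retinoblastoma gene, from 5431 to 1385 (-1.97, with -0.69 by its second probe set) and Ccnb2, a mitotic cyclin, from 2754 to 833 (-1.73), and Mki67, the proliferation marker, from 6923 to 2713 (-1.35). Replication genes such as Pcna and Mcm5 stayed within 2-fold (-0.21 and -0.27). The rises were Plk3, Plk2, Cdkn2a and Ccnd2, of which Ccnd2, the D-type cyclin of T cells, went from 16095 to 32711 (1.02) and Ccnd3 fell by 1.51 on the log2 scale. In the BCL2 and caspase list 7 of 23 rose and 5 fell (median 0.03). The anti-apoptotic gene Bcl2l1 went from 499.8 to 2207 (2.14), and the pro-apoptotic genes Bbc3, which encodes PUMA, and Bad fell from 994 to 175 (-2.51) and from 853 to 171 (-2.32). Other pro-apoptotic genes were among the rises and genes of apoptosis inhibitors among the falls, so that this list did not move one way. Bcl2, Bcl2l11 and Mcl1 stayed within 2-fold.

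Zinc finger genes were the largest family that leaned downward. Of 283 members with Zfp, Zkscan and similar names 78 fell and 13 rose (median -0.49), 27.6% that fell against 21.0% of all and 4.59% that rose against 14.6%. Zfp36l1 and Zfp36l2, which despite their names bind AU-rich sequences of cytokine mRNA and start its decay, moved in opposite directions, from 3203 to 21949.6 (2.78) and from 24065 to 3805 (-2.66), although the second probe set of Zfp36l2 gave -0.31. Among all 19 genes of cytokine mRNA decay 3 rose and 4 fell (median 0.39), and Zc3h12c, of the regnase family, had the largest rise, from 129.5 to 5188 (5.32). Zfp36, which encodes tristetraprolin, and Zc3h12a, which encodes regnase-1, stayed within 2-fold (0.69 and 0.39).

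Histone genes had 1 rise and 4 falls among 14 members, tubulin and actin genes 1 and 4 among 13, and exchange factor and RGS genes 8 and 9 among 28. The shares that fell were 28.6%, 30.8% and 32.1%, against 21.0% of all genes described, and those that rose 7.14%, 7.69% and 28.6%, against 14.6%. The histone rise was H1f4 (6.59 to 112) and the tubulin rise Tubb4a (28.0 to 115). With low signals raised they were 1.51-fold and 1.55-fold higher, short of 2-fold. With so few members these shares describe the families and set none of them apart.

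Granzymes and cytotoxic granule genes had 7 rises and no fall among 14 (median 0.99). The serpins that protect cells from their own granzymes led, with Serpinb6b at 283 to 15786 (5.80) and Serpinb9, an inhibitor of granzyme B, at 381 to 12047 (4.98). Prf1, the perforin gene, went from 292 to 1688 (2.53, with 0.13 by its second probe set). Gzma (49543 to 50804) and Gzmb (30603 to 46591) were bright on both arrays and stayed within 2-fold. A 2-fold rise of either would have passed the highest signal of any probe set on the stimulated array (58757), so it could not have been read. Interferon response genes had 4 rises and 6 falls among 28 members (median 0.02), 14.3% and 21.4% against 14.6% and 21.0% of all genes described, shares close to the background. Ifih1, a sensor of viral RNA, went from 793 to 13467 (4.09) and Mx1 from 3336 to 1252 (-1.41). Of the 17 genes that the study lists as GATA3 targets 7 rose and 1 fell (median 0.81), and of its 14 measured non-target genes above the limit 6 rose and 2 fell (median 0.64, 0.42 with low signals raised). Beside the cytokines among the targets, Cyp11a1, which makes pregnenolone from cholesterol, went from 7534 to 17052 (1.18) and Itgb3, an integrin chain, fell from 2778 to 721 (-1.95, with -0.29 by its second probe set). Of the non-targets, F2r, a thrombin receptor, rose by 1.39 and Ecm1 had a difference of 0.29.

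The same comparison in Th2-1st cells uses 2 other arrays and is given beside the values above. There 1178 of 11021 genes rose (10.7%) and 1844 fell (16.7%). Of 10428 genes described in both cultures, 1407 rose in Th2-4th cells, and 771 of these (54.8%) also rose in Th2-1st cells, where 9.70% of the 10428 rose in all. From the other side, the 771 were 76.2% of the Th2-1st rises. Of 2203 falls in Th2-4th cells 1272 (57.7%) also fell in Th2-1st cells, which was 73.8% of the Th2-1st falls. In 14 genes a Th2-4th rise met a Th2-1st fall and in 8 the reverse held, by the signals as measured, low ones included. Across the 9046 genes above the medians on all 4 arrays the differences had a Pearson r of 0.85 and a Spearman rank correlation of 0.82, as a description over genes that share arrays and are not independent. Of the 539 that rose in both, 394 had the larger difference in Th2-4th cells, and of the 985 that fell in both, 610 had the lower value there.

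**Figure D4:**
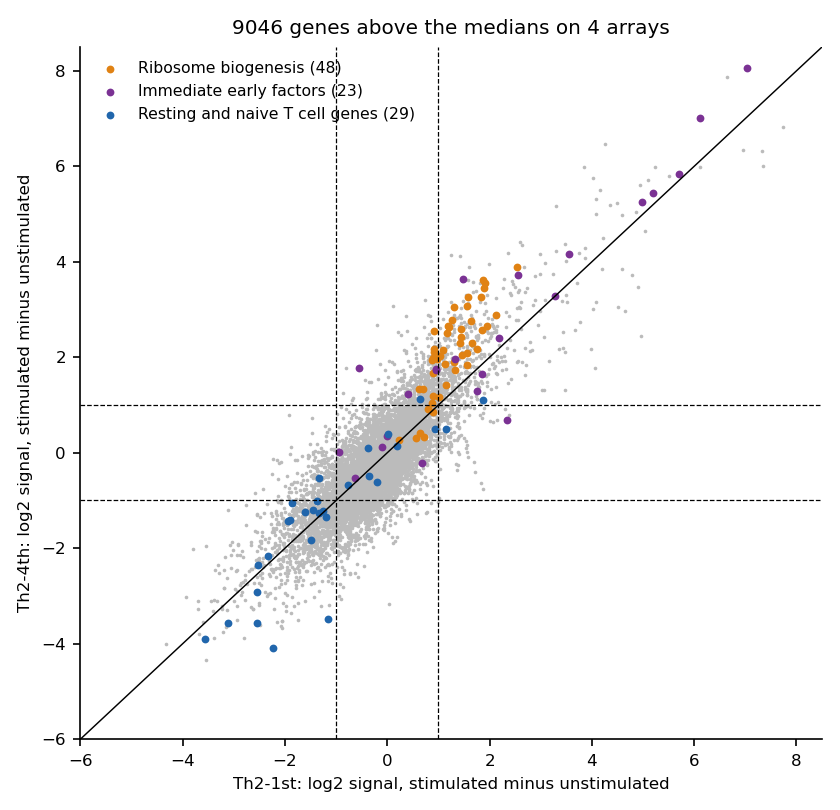
Log2 signal of stimulated minus unstimulated control cells in Th2-4th (vertical axis) against Th2-1st cells (horizontal axis) for 9046 genes above the medians on all 4 arrays. Coloured points are 3 lists, dashed lines mark 2-fold and the diagonal marks equal differences, and ribosome biogenesis genes (orange) mostly lie above it, with list medians of 2.11 and 1.20.

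Some groups were further apart between the cultures than others. Ribosome biogenesis had a median of 2.11 in Th2-4th and 1.20 in Th2-1st cells, where 32 of the 49 rose. Nop56 went from 1199 to 7455 in Th2-4th and from 5031 to 11585 in Th2-1st cells, with the higher resting signal in the latter. Myc likewise went from 299 to 5218 in Th2-4th and from 1841 to 4939 in Th2-1st cells. SOCS and PIM genes had medians of 1.53 and 0.57, and immediate early genes of 2.74 and 2.01. Th2 and haematopoietic cytokines had 6.35 and 7.34, resting T cell genes -1.21 and -1.41, and cell cycle genes -0.60 and -0.46. Il6 ended at 45438 in Th2-4th and 10942 in Th2-1st cells, Il21 at 2156 and 8554, and Tnf at 17525 and 3803. None of these differences between cultures was tested, and Th2-4th cells had also been kept with an antibody to IL-4.

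With no replicate array, the other probe sets of a gene are the closest thing to a repeat, although they share the RNA and the arrays. In 4434 genes with a further probe set above the medians, both differences were a median of 0.33 apart and 1.34 at the 95th percentile (Pearson r 0.81 across genes). Of 520 rises 360 (69.2%) were over 2-fold by the other probe set too, 492 lay above 0, and 1 was under 0.5-fold. Of 778 falls 481 (61.8%) were under 0.5-fold by the other, 734 lay below 0, and 2 were over 2-fold. Differences not much above 2-fold are therefore within what the choice of probe set can move.

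**Figure D5:**
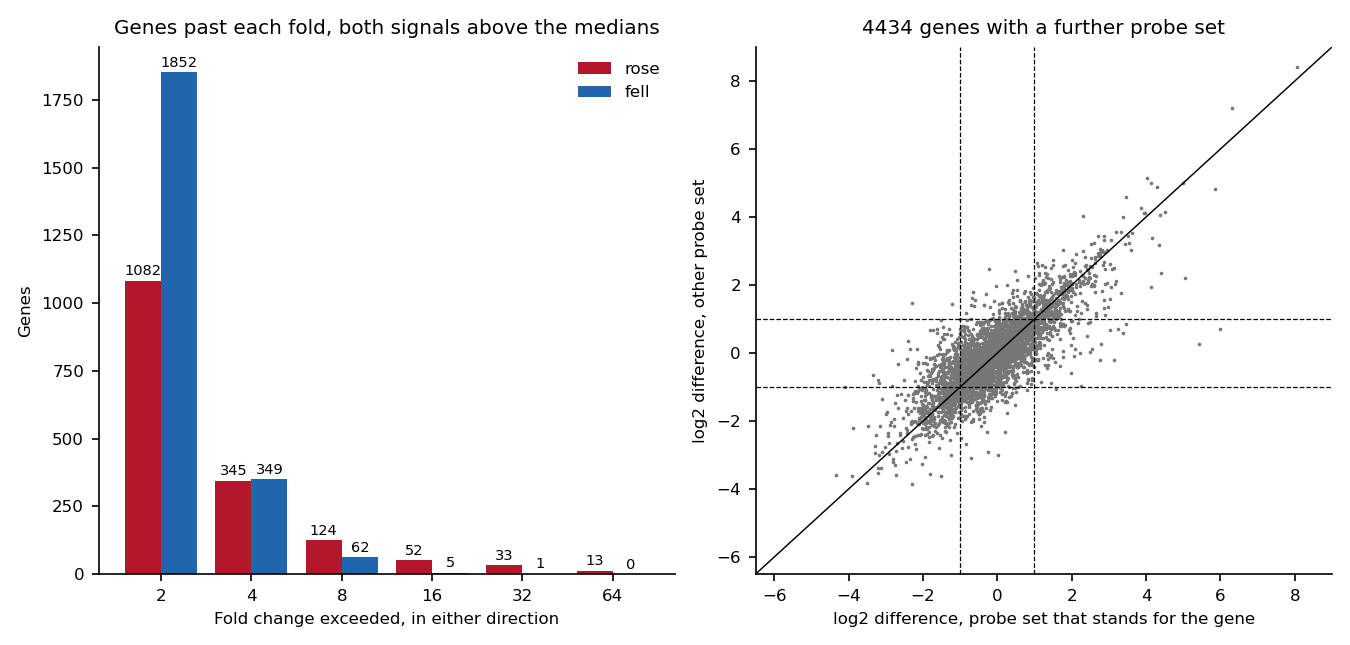
Left, number of genes (vertical axis, from 0) past each fold (horizontal axis) among the 9551 with both signals above the medians, red for rises and blue for falls, from 1082 and 1852 past 2-fold to 13 and 0 past 64-fold. Right, log2 difference by the other probe set (vertical axis) against that by the probe set that stands for the gene (horizontal axis) for 4434 genes, with 2-fold dashed and equality as the diagonal.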

How the data were processed

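RNA of 6 cultures was hybridised to Affymetrix Mouse Genome 430 2.0 arrays, 1 array per condition. The authors deposited 1 table of signal intensities, with 45101 probe sets, made with Affymetrix Expression Console. Its version and its algorithm are not stated in the labels or methods. Leaving out 2% of probe sets at each end, every array averages 500.0, so a change in total mRNA per cell cannot be seen. Arrays carry no count of reads, and the precision is limited by their number.

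From these values log2 differences were computed with Python 3.11.15, numpy 2.4.6 and pandas 2.3.3, and figures were drawn with matplotlib 3.10.9. Of the probe sets 34945 name 1 gene, 932 several and 9160 none, and 64 are controls. RefSeq (GRCm38.p6) held 99.4% of the probe sets that name 1 gene, also supplied promoter windows, and was matched by gene ID. Each gene was represented by its brightest probe set, taken as the mean log2 signal over all 6 arrays. Rises and falls are past 2-fold, with no test. Genes were named as the 15 largest rises and falls with both signals above the medians and the 8 largest bounds in each direction, plus members of 37 gene lists and 9 families set by name patterns. The members and lists were chosen with earlier results of these data known. The GATA3 target and non-target lists are the study's own, drawn up from Th1 and Th2 arrays and ChIP-Seq outside this series. The study then selected among these genes by qRT-PCR and added genes it had reported earlier. Its methods give 4 h of anti-TCR mAb for the cells used in qRT-PCR, so these lists are not independent of expression after stimulation. Calculations were tested on simulated data. Alternatives varied the probe set, scaling, filter and threshold.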

Additional observations from a re-analysis of the deposited data

Results flagged for a closer look

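In 4 listed genes the signals as measured differed over 2-fold in opposite directions in the Th2-4th and Th2-1st cultures. The difference between cultures was not tested, since each culture has 1 array per condition. In every one of them at least 1 signal was below its array's median, so the log2 differences that follow are not sizes. Arhgef40 had 2.15 in Th2-4th cells (50.2 to 223) and -1.42 in Th2-1st cells (101 to 37.8), or 1.59 and -0.71 with low signals raised to the medians. Slc2a6 had -2.43 (80.7 to 14.9) and 1.17 (49.0 to 110.3), or -0.15 and 0.82. Slc5a5 had 1.43 (49.2 to 133) and -1.49 (72.3 to 25.8), or 0.84 and -0.23. Usp18, an interferon-induced protease, had 1.37 (45.7 to 118) and -1.26 (272 to 114), or 0.67 and -1.26. With low signals raised, none of the 4 was past 2-fold in both cultures.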

How the results depend on the processing

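No paired analysis was possible because the labels give no replicate numbers and each condition has 1 array, and for the same reason no replicate could be left out. Median centring and quantile normalization left the counts of rises and falls within 1.5 times and every list median within the spread between probe sets. Scaling moved the share of rises among all calls from 40.9% to at most 46.1%.

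With the second probe set of each gene, 789 genes rose and 1114 fell, with no filter 3404 and 3936, and past 10 to the power 0.5 in place of 2-fold 847 and 962. With both signals above the medians 1082 rose. With low signals raised, 1269 genes rose and 2072 fell. The second probe sets reversed the medians of the Th2 and haematopoietic cytokines, then the single gene Csf1 (-0.79), and of the chemokines, then 4 genes (-0.61). They also moved the medians of immediate early factors to 0.79, NFAT and NF-kappa B factors to 0.33, SOCS and PIM genes to 0.91, other cytokines to 1.72, TNF ligands to 2.43, TNF receptors to 2.51, interleukin receptors to 0.36, chemokine receptors to 0.81, activation markers to 0.19, GATA3 targets to 1.62, non-targets to -0.17, mRNA decay genes to 0.023, GIMAP genes to -1.96 and small nucleolar RNA host genes to 0.063. With the mean over probe sets, immediate early factors came to 2.28, activation markers to 1.54 and non-targets to 0.29. Without probe sets that can match several transcripts, SOCS and PIM genes came to 1.15 and non-targets to 0.25.

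With both signals above the medians, the medians were 1.77 for immediate early factors, 1.34 for other cytokines, 2.45 for TNF ligands, 4.65 for chemokines, 0.049 for TNF receptors, 0.70 for activation markers and 0.10 for non-targets. With no filter they were 1.97 for other cytokines, 1.55 for chemokines and 0.99 for non-targets. With low signals raised they were 2.13 for immediate early factors, 1.87 for other cytokines, 2.53 for chemokines and 0.071 for TNF receptors. With the higher signal above 4 times the median they were 7.12 for Th2 and haematopoietic cytokines, 6.57 for chemokines, -0.90 for chemokine receptors and 1.18 for GATA3 targets.

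Of the genes named with a difference past 2-fold, 116 had a second probe set above the filter, and 21 lost the call by it, which besides those given beside their values were Ccr1 (0.85), Ern1 (-0.42), Gpr183 (0.81), Hmgcs1 (0.87), Psmd7 (0.65), Psmd11 (0.93) and Snhg1 (0.37). The mean over probe sets ended 12 of 245 calls, among them Pfkfb3 (0.73), Cyp11a1 (0.74) and Slfn1 (-0.99). Of 248 calls, low signals raised ended 6, those of Ccr3, Slamf6, AI854703, Slc2a6, Slc5a5 and Usp18, quantile normalization 7, those of Calr, Ccnd2, Cycs, Cyp11a1, Ern1, Slfn2 and Tnfrsf1a, and median centring 2, those of Ern1 and Gimap3. These counts leave out Ccl28, Cxcl13, Ccr10, H1f4 and Tubb4a, whose values with low signals raised are given beside them. Single genes turned with the probe set. Mxd4 gave 0.97 by its second probe set and also without probe sets that can match several transcripts, and the second probe sets gave -0.96 for Nfatc1, 0.25 for Nfatc2 and 1.47 for Pag1. The mean over probe sets gave 0.015 for Tnfsf13b. Fewer genes enter under the second probe set and the stricter filters, and beyond that the cause was not tested. Signals near the array median limit all folds of genes that are low in 1 state.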

Other observations

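Genes outside the lists also had large differences, and those given here were chosen after their values were seen. Sema7a, which encodes a semaphorin, went from 195 to 9468 and Phlda1 from 510.1 to 23222. Gch1, the first enzyme of tetrahydrobiopterin synthesis, went from 537 to 17733, and Kdm6b, a histone H3 lysine demethylase gene, from 473 to 9273. Mir155hg, the host gene of miR-155, went from 275 to 5478, and Orai1, the pore of the calcium channel that opens after TCR engagement, from 583 to 3838. Among the falls, Pdcd4, an inhibitor of translation, went from 11149.6 to 958, Sesn1, an inhibitor of mTORC1, from 3709 to 328, and Ccng2, an atypical cyclin, from 6169 to 721.

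Some neighbours on a chromosome moved the same way. Of 1617 placed genes that rose, 381 (23.6%) had an adjacent gene that rose, against 16.4% of 14071 genes that neither rose nor fell. Of 2344 placed falls, 722 (30.8%) had an adjacent fall, against 23.1%. The 14071 include genes below the limit, which numbered 7008 among all genes measured and could not count as rises or falls. These shares therefore do not compare described genes alone, and the part of this in the gaps was not tested. Runs of at least 3 genes numbered 25 for rises and 57 for falls. The longest was a run of 8 falls, with Zfp775, AI854703 and Gimap8, Gimap9, Gimap4, Gimap6, Gimap7 and Gimap1. Rising runs included Csf2, Il3 and Acsl6, the TNF ligands Tnfsf9, Cd70 and Tnfsf14, and the serpins Serpinb1a, Serpinb6b, Serpinb9 and Serpinb9b. Probes of related neighbouring genes can share sequence, and the part of this in the runs was not tested. The median gene length was 19.7 kb for rises, 26.7 kb for falls and 22.3 kb for all described genes with a length. The E-box CACGTG, bound by MYC and related proteins, was found in 10 of 47 promoter windows of ribosome biogenesis genes (21.3%). Its share was 7.15% of all windows, 12.2% for genes that rose and 9.77% for described genes within 2-fold. The windows of the list held a median of 23 CpG dinucleotides, against 7 for all windows, and the E-box itself contains a CpG. The part of base content in these shares was not tested, and a match of letters is not a bound site.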
